A study of Mus musculus with 28 samples.

Results

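Rapamycin reached the mice of these groups by different routes and in different formulations, and the comparison is between them: free rapamycin injected under the skin (group R) and oral rapamycin given as Rapamune by gavage (group RO). The members are the RNA-seq libraries that the labels put in these groups, 12 of the 28 in the series, and 11 of them were compared, 6 of R and 5 of RO. RO replicate 7 was left out because its counts stop part way through the genome and 10 of its chromosomes are at 0 throughout. All of the mice were male C57BL/6J animals of 8 to 12 weeks. R and RO mice received 11 doses, 1 a day, of 1 mg rapamycin per kg from a preparation of 0.125 mg/ml. R was suspended in 0.2% CMC and injected into the scruff of the neck. Route and formulation therefore change together between R and RO and cannot be told apart, and no group received the R or the RO vehicle alone. The other groups are untreated mice (NT, 7 libraries), empty polymersomes (PS, 4) and polymersomes loaded with rapamycin (rPS, 5), both injected under the skin. T cells were isolated from each spleen with magnetic beads after red cell lysis, and each mouse gave 1 bulk library.

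Rapamycin binds the immunophilin FKBP12 (gene Fkbp1a), and the complex inhibits mTOR complex 1, the kinase complex that couples growth factor and nutrient signals to protein synthesis and cell growth. In T cells, mTOR signalling downstream of the antigen and interleukin receptors supports entry into the cell cycle, and the drug is used in transplantation because it slows the clonal expansion of T cells. Oral rapamycin passes through the gut wall and liver before it reaches the circulation, while a dose under the skin is absorbed from the injection site. Drug levels were not measured in the data used here.

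Total counts ran from 5137057 to 8844195 per R library and from 4721526 to 14153508 per RO library compared. The labelled cell type was checked with Cd3e, a subunit of the T cell receptor complex. Cd3e stood between 174 and 281 CPM (counts scaled to the library total) in 9 of the 11 libraries. It was 9.58 CPM in R replicate 3 and 46.9 CPM in RO replicate 3. Lyz2, a lysozyme gene of monocytes and macrophages, was at 2827 and 3195 CPM in those libraries and between 180 and 480 CPM in the other 9. The test over all genes is therefore given on 11 libraries and again on those with at least 60 CPM of Cd3e. The latter are 9 libraries, 5 of R and 4 of RO. Values of single genes and gene lists further below are from the 9 libraries, unless the 11 or a replicate 3 are named. B cell RNA was present in all 11, with the summed level of the 25 B cell genes tested at 4992 to 12170 CPM in R and 7587 to 12350 CPM in RO. In bulk RNA, fewer cells of a type and less RNA per cell cannot be told apart. Libraries were taken as separate mice, and every p-value measures the spread between these libraries.

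**Figure D1:**
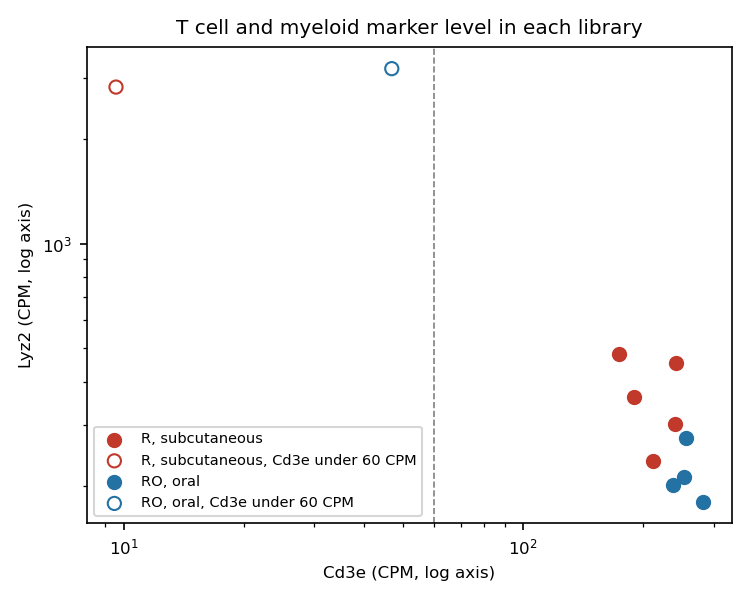
Level of Cd3e (horizontal axis, CPM, log scale) against Lyz2 (vertical axis, CPM, log scale) in the 6 R (red) and 5 RO (blue) libraries, 1 point per library, with a dashed line at 60 CPM of Cd3e. R replicate 3 and RO replicate 3 (open circles) lie left of the line at 2827 and 3195 CPM of Lyz2, and the other 9 libraries lie together at the lower right.

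On the 11 libraries no gene passed the test between the routes. Of 15374 genes tested with edgeR's quasi-likelihood test, 0 were called at an adjusted p under 0.05 (0% of the genes), the smallest adjusted p was 0.546, and 526 genes had an unadjusted p under 0.05 (3.42%), 253 of them higher in R (1.65%) and 273 lower (1.78%). The median log2 fold change, R over RO, was -0.0053. The CPM ranges of R and RO did not overlap for 76 genes (0.494%), 9 higher (0.0585%) and 67 lower in R (0.436%). CPM uses library totals alone, while the test also scales the libraries with TMM. The split of these ranges into higher and lower therefore depends on the scaling. DESeq2 called 27 genes and limma voom with sample weights 16 on the same libraries. The 95% interval of the fold change lay within 2-fold of no difference for 73.3% of the genes and within 1.5-fold for 43.6%, and for the remaining genes it reached 2-fold or more. The genes with the smallest p were Cplx2, Myb, Resf1, Tap1, Hspg2, Igkv12-46, Bmp2k, Pclaf, Sox4 and Mybl1.

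On the 9 libraries with at least 60 CPM of Cd3e, 38 of 15461 genes were called (0.246%), 26 higher (0.168%) and 12 lower in R (0.0776%). A gene list with 0 calls is near this share over all genes, so its 0 is not a result about the list. The unadjusted p was under 0.05 for 1768 genes (11.4%), 1025 higher (6.63%) and 743 lower (4.81%). The CPM ranges of the groups did not overlap for any of the 38, and over the whole table this held for 783 genes (5.06%), 239 higher (1.55%) and 544 lower (3.52%). Here too the ranges lack the TMM scaling of the test, so their excess of lower genes is not a result about direction. Genes higher after subcutaneous dosing included Syt6, Chil3, Neb, Fn1, S100a9 and Bcl2. Genes lower included Nuggc, Cplx2, Cep55, Pclaf, Slc16a5, Myb and Zbp1. The interval lay within 2-fold of no difference for 83.8% of the genes and within 1.5-fold for 57.1%.

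How many genes were called rested on single libraries and on the tool. Leaving out R replicate 4 gave 14 calls, R replicate 5 gave 21, R replicate 6 gave 68, R replicate 7 gave 14 and R replicate 2 gave 13. Leaving out RO replicate 5 gave 7 calls, RO replicate 6 gave 5 and RO replicate 1 gave 4, while RO replicate 4 gave 32. Syt6, Neb, Fn1 and Slc16a5 were the 4 named genes called in each of the 9 fits that leave out a library. Cplx2 was called in 7 of these fits, Chil3 and Myb in 6 and Pclaf in 5. Bcl2, Cep55 and Zbp1 were called in 2, and Itgae, S100a9, Nuggc and Cxcr2 in 1. DESeq2 called 309 genes, while an edgeR fit of all 5 groups restricted to the same Cd3e level called 0 (768 at an unadjusted p under 0.05). With the mean level of the neutrophil list as a covariate in edgeR 0 genes were called (827 at an unadjusted p under 0.05), with the red cell list 1, and with the T cell receptor list 1. All 38 genes kept the sign of their fold change in each of these covariate and 5-group fits, and 37 of the 38 did so on the 11 libraries.

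**Figure D2:**
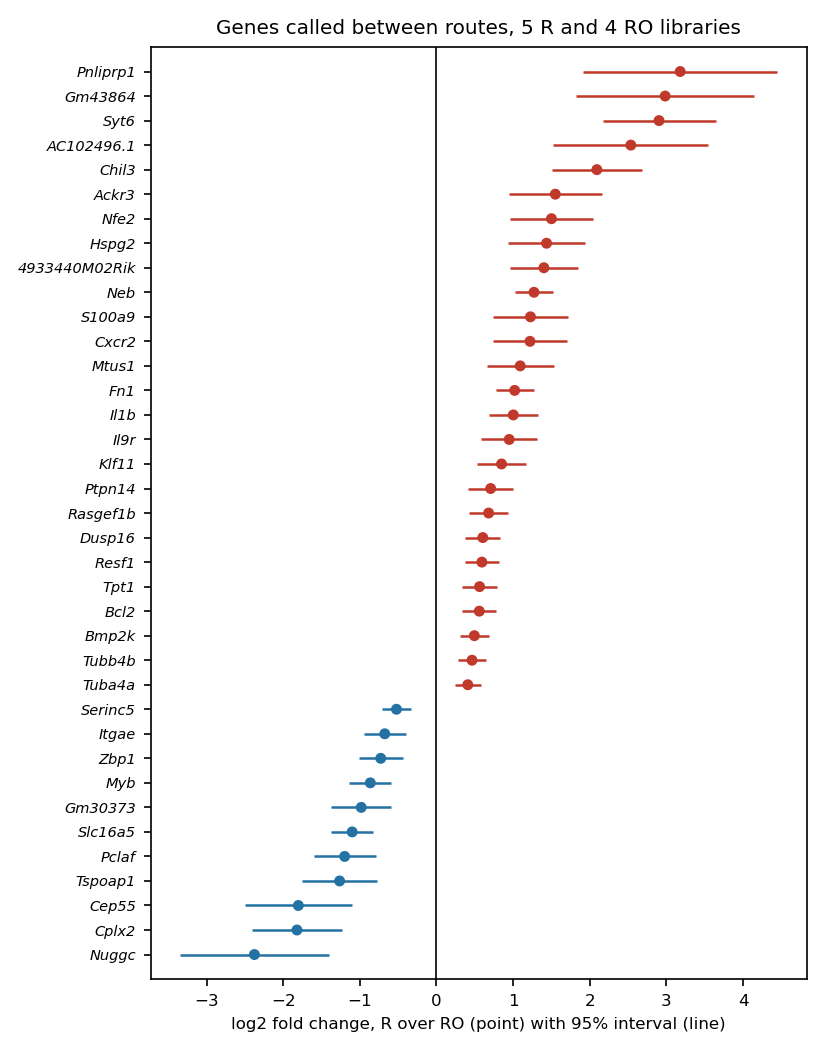
Log2 fold change, R over RO (horizontal axis), of 37 of the 38 genes called on 5 R and 4 RO libraries, each gene a row, with points for the estimate and lines for its 95% interval. The 26 genes higher in R (red) reach 3.18 for Pnliprp1, and the 11 shown lower in R (blue) reach -2.37 for Nuggc.

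**Figure D3:**
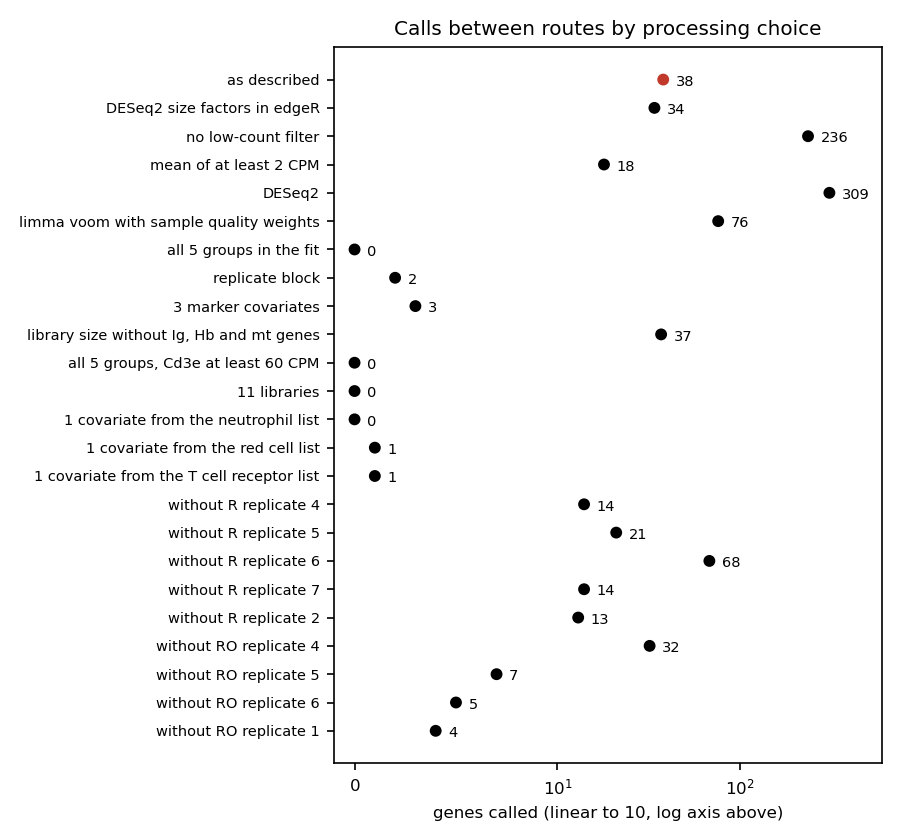
Number of genes called between R and RO (horizontal axis, linear to 10 and logarithmic above) under each processing choice or left-out library (rows), starting from the 9 libraries (red point, 38 genes). The count runs from 0 with all 5 groups, the 11 libraries or a neutrophil covariate to 309 with DESeq2.

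Genes of T cell survival and signalling were examined first. Syt6 encodes a synaptotagmin, a membrane protein of the family that regulates vesicle fusion. Its level was 21.7, 13.8, 20.1, 23.9 and 10.1 CPM in R replicates 4, 5, 6, 7 and 2, against 3.14, 3.83, 1.45 and 1.27 CPM in RO replicates 4, 5, 6 and 1. The lowest of these R libraries was above the highest RO library. Syt6 was 2.90 ± 0.34 higher on the log2 scale (SE, adjusted p = 0.0051). R replicate 3, the library with the least Cd3e, had 0.147 CPM and RO replicate 3 had 2.76 CPM, and on 11 libraries the log2 difference was 2.55 with an adjusted p of 1.0. Syt6 had been singled out with earlier results of these data known.

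Bcl2, the mitochondrial protein that protects lymphocytes from apoptosis, was at 718, 554, 557, 668 and 665 CPM in R replicates 4, 5, 6, 7 and 2. In RO replicates 4, 5, 6 and 1 it was at 446, 488, 420 and 425 CPM, below all 5 of these R libraries. The log2 difference was 0.56 ± 0.11 (SE, adjusted p = 0.045), and R replicate 3 and RO replicate 3 stood at 188 and 195 CPM. Of 21 genes of the common gamma chain receptors and their STAT5 targets, Bcl2 alone was called, beside 0.246% called over all genes. The list's median log2 difference was 0.11, beside 0.01 over all genes. Il7r, the receptor chain for interleukin 7, averaged 292 ± 61.5 CPM in R and 197 ± 31.1 in RO (SD, n = 5 and 4), with an adjusted p of 0.145. Pim1 and Pim2, kinases induced by cytokine receptors, had log2 differences of 0.51 and 0.44 with adjusted p of 0.106 and 0.0865.

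T cell receptor genes did not pass the test. Of 25 genes of the receptor and its proximal signalling, 0 were called, beside 0.246% over all genes. In the list 24 had log2 differences below 0, and the median was -0.23. The unadjusted p was under 0.05 for 8 of the 25, all lower in R, beside 4.81% lower over all genes. The summed level of the list was 4900 to 5927 CPM in the 5 R libraries and 5943 to 7008 CPM in the 4 RO libraries. The nearest libraries, at 5927 and 5943 CPM, differed too little to call the groups apart. CPM uses library totals alone, without the TMM scaling of the fold changes. Cd6, a receptor that tunes T cell activation, averaged 159 ± 16.7 CPM in R and 250 ± 50.2 CPM in RO (SD, adjusted p = 0.0765). Zap70, the kinase recruited to the receptor, averaged 112 ± 7.89 and 161 ± 28.2 CPM (adjusted p = 0.116). Cd8a, the coreceptor of cytotoxic T cells, averaged 292 ± 51.2 CPM in R and 377 ± 35.0 CPM in RO (adjusted p = 0.318). Cd4 counts over Cd8a counts, as a log2 ratio, stood at -1.57 ± 0.618 in R and -1.38 ± 0.481 in RO (SD), and the exact permutation test gave an adjusted p of 0.825.

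Foxp3, the transcription factor of regulatory T cells, did not pass the test, with a log2 difference of -0.0018 and an interval from -0.53 to 0.53. Itgae, the integrin chain CD103 found on CD8 T cells and some regulatory T cells, was called: it was at 26.2, 24.7, 18.3, 20.7 and 18.1 CPM in R and 37.0, 35.2, 31.9 and 38.1 CPM in RO. Its log2 difference was -0.67 ± 0.13 (SE, adjusted p = 0.045), and it was the 1 gene called of 14 tested in the regulatory T cell list, beside 0.246% called over all genes. Of 15 genes for inhibitory receptors and TOX factors 0 were called, 6 lay above 0 and 9 below, and the median was -0.29. Pdcd1, which encodes the inhibitory receptor PD-1, averaged 4.07 ± 0.544 CPM in R and 8.71 ± 3.81 CPM in RO (SD, adjusted p = 0.117), with 4.66 CPM in RO replicate 1 falling among the R libraries.

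Some cell cycle genes were lower in R and others were not. Pclaf encodes a factor that binds the replication clamp PCNA. Its level was 5.05, 5.06, 4.30, 4.20 and 3.90 CPM in R replicates 4, 5, 6, 7 and 2 and 8.85, 8.66, 11.7 and 13.8 CPM in RO replicates 4, 5, 6 and 1. The groups did not overlap, also with R replicate 3 at 7.37 CPM and RO replicate 3 at 11.2 CPM. The log2 difference was -1.20 ± 0.19 (SE, adjusted p = 0.0235), and -1.08 with an adjusted p of 0.746 on 11 libraries.

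Cep55, which acts in the final separation of daughter cells, was at 0.546, 0.584, 0.904, 1.48 and 1.17 CPM in R and 3.14, 2.72, 4.25 and 4.02 CPM in RO. Every R library of the 9 lay below every RO library, and the log2 difference was -1.80 ± 0.33 (SE, adjusted p = 0.045). Of 27 genes of S phase and DNA replication, 1 was called lower (Pclaf), beside 0.0776% of all genes, 21 lay below 0 and the median was -0.21. Mcm6, a subunit of the replicative helicase, averaged 61.7 ± 8.00 CPM in R and 79.9 ± 4.49 CPM in RO (SD, adjusted p = 0.203). Of 23 mitosis genes 0 were called, 14 lay below 0 and 9 above, and the median was -0.12. The unadjusted p was under 0.05 for 3 lower and 1 higher in R, and the 1 higher had the smallest p of the list. Top2a, the topoisomerase of dividing cells, had a log2 difference of -0.55 with an adjusted p of 0.364. Mki67, the gene of the proliferation antigen Ki-67, was at 70.7 to 232 CPM in R and 79.1 to 162 CPM in RO, with overlapping groups (log2 difference 0.49, adjusted p = 0.685).

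Myb, a transcription factor of lymphoid progenitors and dividing lymphocytes, was at 24.3, 43.2, 35.7, 33.96 and 28.98 CPM in R and 58.8, 63.0, 60.5 and 67.1 CPM in RO. R replicate 3 had 36.8 CPM and RO replicate 3 had 64.8 CPM, so the groups were apart over all 11 libraries. The log2 difference was -0.86 ± 0.13 (SE, adjusted p = 0.0141) on 9 libraries and -0.87 with an adjusted p of 0.546 on 11. Its relative Mybl1, a factor of germinal centre B cells, was at 0.546 to 1.36 CPM in R and 1.999 to 4.54 CPM in RO (log2 difference -1.67, adjusted p = 0.0592). Mybl2, the relative active in cycling cells, had a log2 difference of -0.35 (adjusted p = 0.507). Nuggc, a nuclear GTPase of germinal centre B cells, was at 0 to 0.819 CPM in R and 1.43 to 4.02 CPM in RO and was called (log2 difference -2.37 ± 0.45, SE, adjusted p = 0.0454). R replicate 5 had no Nuggc count, which allows up to 3 counts or 0.584 CPM for counting error alone.

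Promoter sequences are shown for Pclaf and Cep55, the cell cycle genes called lower, and for Syt6, the gene called higher with the largest fold change among those named by the rule. Each is the 250 bases before an annotated start, from RefSeq on build GRCm38.p6, printed 5′ to 3′ on the gene's strand. Capitals mark CCAAT boxes (CCAAT) in Pclaf and the cell cycle homology region (TTTGAA) in Cep55, both motifs found in promoters of cell cycle genes and each searched on both strands. Syt6 holds neither motif and is printed without capitals. The other start listed for Cep55 and the other 2 for Syt6 are not printed, and their windows hold neither motif. Bcl2, called higher in R, holds TTTGAA 120 bases before its start and is not printed either.
Pclaf, chr9:65890073-65890322, plus strand: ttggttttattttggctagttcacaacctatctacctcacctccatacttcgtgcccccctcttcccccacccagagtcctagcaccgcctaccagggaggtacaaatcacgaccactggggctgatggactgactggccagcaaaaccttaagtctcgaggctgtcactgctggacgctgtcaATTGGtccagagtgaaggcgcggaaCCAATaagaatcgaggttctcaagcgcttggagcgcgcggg
Cep55, chr19:38054791-38055040, plus strand: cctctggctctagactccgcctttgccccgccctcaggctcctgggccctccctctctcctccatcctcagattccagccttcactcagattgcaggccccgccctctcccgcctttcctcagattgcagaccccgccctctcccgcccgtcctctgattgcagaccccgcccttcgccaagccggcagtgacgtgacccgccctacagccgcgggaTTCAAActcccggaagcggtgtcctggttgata
Syt6, chr3:103574995-103575244, plus strand: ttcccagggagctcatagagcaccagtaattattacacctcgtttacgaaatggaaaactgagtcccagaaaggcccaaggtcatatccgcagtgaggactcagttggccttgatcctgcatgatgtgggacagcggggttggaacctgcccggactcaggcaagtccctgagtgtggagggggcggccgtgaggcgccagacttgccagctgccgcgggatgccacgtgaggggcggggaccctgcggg
Of the 32851 windows of this length in the table, 33.9% hold CCAAT and 15.99% hold TTTGAA. The CCAAT boxes of Pclaf begin 66 and 41 bases before the start, and TTTGAA begins 33 bases before the start of Cep55. TTTGAA is not in the Pclaf window, and CCAAT is not in the Cep55 window shown. A match is a description of letters only.

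Zbp1, a gene of the interferon response, was lower in R. It is an interferon-induced sensor of nucleic acid and was at 22.2 to 32.9 CPM in R and 40.7 to 54.7 CPM in RO (log2 difference -0.73 ± 0.13, SE, adjusted p = 0.045).

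Of 29 interferon-response genes tested, 2 were called lower, Zbp1 among them, and 0 higher, beside 0.0776% called lower over all genes. Of the 29, 27 lay below 0 and the median was -0.29, while over all genes 51.9% lay above 0. Their summed level was 1156 to 1317 CPM in R and 1463 to 1605 CPM in RO. Mx1, an interferon-induced antiviral GTPase, averaged 6.54 ± 0.821 CPM in R and 11.6 ± 2.62 CPM in RO and did not pass (SD, adjusted p = 0.111). On 11 libraries the median of the list was -0.43 and 27 of 29 lay below 0, with 0 called.

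Of 17 genes of MHC class I presentation 0 were called, beside 0.246% over all genes. Of these, 13 lay below 0 and 4 above, the median was -0.23, and the summed level was 7002 to 7880 CPM in R against 8471 to 9615 CPM in RO. Tap1, a subunit of the transporter that carries peptides to class I molecules, was at 293, 299, 353, 305 and 264 CPM in R and 394, 474, 407 and 431 CPM in RO (log2 difference -0.45, adjusted p = 0.0592). Nlrc5, the transactivator of class I genes, averaged 331 ± 42.1 CPM in R and 496 ± 64.0 CPM in RO (SD, adjusted p = 0.057). Both missed the threshold with ranges that did not overlap. DESeq2, limma voom and edgeR without a low-count filter called Tap1, with adjusted p of 0.00075, 0.0305 and 0.0086. The edgeR fits with all 5 groups, a replicate block or covariates did not, with adjusted p of 0.399 or more. Of the 9 fits that leave out a library, 1 called Tap1. H2-Q7, a class I gene with near-identical neighbours whose reads can be split among them, averaged 248 ± 13.9 and 357 ± 50.0 CPM (adjusted p = 0.0592).

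Among the other called genes, Neb had the smallest adjusted p. It encodes nebulin, a giant protein known from the thin filaments of skeletal muscle, and was at 38.8, 43.2, 35.3, 47.6 and 36.5 CPM in R and 14.99, 17.8, 19.3 and 16.5 CPM in RO. All 5 of these R libraries were above the 4 RO libraries (log2 difference 1.27 ± 0.12, SE, adjusted p = 0.00034). R replicate 3, at 6.33 CPM, was below RO replicate 3, at 12.2 CPM. Slc16a5, a carrier of the monocarboxylate family, was at 13.9, 15.2, 11.3, 11.4 and 14.4 CPM in R and 28.4, 29.9, 27.99 and 30.9 CPM in RO (log2 difference -1.10 ± 0.13, SE, adjusted p = 0.0022).

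Hspg2, the basement membrane proteoglycan perlecan, averaged 25.02 ± 5.07 CPM in R and 9.70 ± 3.51 CPM in RO (SD, adjusted p = 0.0348). Ackr3, a chemokine receptor that takes up CXCL12 without signalling through G proteins, averaged 6.27 ± 1.37 and 2.23 ± 0.782 CPM (adjusted p = 0.045). Cplx2, a complexin that acts on vesicle fusion, was at 1.70 to 3.64 CPM in R and 5.81 to 10.6 CPM in RO, and the groups also did not overlap over the 11 libraries (log2 difference -1.82 ± 0.27, SE, adjusted p = 0.0141). Tspoap1 averaged 12.9 ± 1.35 CPM in R and 32.3 ± 12.1 CPM in RO (adjusted p = 0.0457), and Serinc5, a membrane protein that restricts retroviruses, 39.6 ± 0.810 and 59.0 ± 5.70 CPM (adjusted p = 0.0348). Resf1, which takes part in silencing of retroelements, averaged 238 ± 36.1 and 163 ± 6.10 CPM, and Bmp2k, a kinase of vesicle coats, 224 ± 13.8 and 165 ± 17.3 CPM (adjusted p = 0.045 for both). Mtus1, a microtubule-associated protein, averaged 9.66 ± 1.90 and 4.63 ± 0.845 CPM (adjusted p = 0.045).

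Markers of other cells were examined in the same libraries. All 13 neutrophil genes tested had log2 differences above 0, with a median of 1.23, and 3 were called higher: Chil3, S100a9 and Cxcr2 (over all genes 0.168% were called higher). Chil3, a chitinase-like protein of myeloid cells, was at 26.9, 31.9, 39.7, 41.9 and 16.1 CPM in R and 10.4, 5.57, 7.43 and 6.78 CPM in RO (log2 difference 2.09 ± 0.27, SE, adjusted p = 0.0141). The lowest R library was above the highest RO library here. In R replicate 3 and RO replicate 3 Chil3 was at 259 and 163 CPM, and on 11 libraries its log2 difference was 0.80 with an adjusted p of 1.0. S100a9, a calcium-binding protein abundant in neutrophils, averaged 19.4 ± 6.13 and 8.46 ± 1.96 CPM (adjusted p = 0.045). The summed neutrophil list was at 133 to 220 CPM in R and 59.1 to 104 CPM in RO.

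Fn1, the matrix protein fibronectin made by macrophages and stromal cells among others, was at 176, 225, 281, 225 and 203 CPM in R and 117, 106, 124 and 105 CPM in RO (log2 difference 1.02 ± 0.12, SE, adjusted p = 0.0022). It was at 3209 CPM in R replicate 3 and 957 CPM in RO replicate 3, the libraries with the most Lyz2. Nfe2, a transcription factor of the red cell and platelet lineages, averaged 16.4 ± 5.17 CPM in R and 5.82 ± 1.96 CPM in RO (SD, adjusted p = 0.036). Of 20 monocyte and macrophage genes 0 were called and 18 lay above 0 with a median of 0.31, while on 11 libraries the median was -0.13. Lyz2 averaged 366 ± 102 CPM in R and 217 ± 41.0 CPM in RO (adjusted p = 0.145).

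All 21 red cell genes lay above 0 in R, with a median of 1.66 and 0 called. Rhag, a red cell membrane protein, was at 5.09 to 24.4 CPM in R and 0.371 to 3.57 CPM in RO (log2 difference 2.77 ± 0.61, SE, adjusted p = 0.12). Klf1, the factor that drives red cell genes, averaged 12.0 ± 7.36 and 2.60 ± 1.45 CPM (adjusted p = 0.167). The summed list ran from 3220 to 11720 CPM in R and from 1082 to 5030 CPM in RO, with overlap. All 8 genes tested of the pancreatic acinar list lay above 0 with a median of 1.995 and 0 called. Pnliprp1, a pancreatic lipase-related gene outside that list, was called, with the largest fold change of the 38: it was at 1.81 to 7.09 CPM in R and 0.193 to 0.847 CPM in RO (log2 difference 3.18 ± 0.59, SE, adjusted p = 0.0449). Its RO values lay around the level that a count of 0 allows in those libraries, 0.29 to 0.635 CPM. The highest R value came from R replicate 4, and Pnliprp1 was called in 1 of the 9 fits that leave out a library. In the list, Cela2a, an elastase, was at 17.6 CPM in R replicate 4 and at 2.04 to 6.11 CPM in the other 4 R libraries, against 0.428 to 1.85 CPM in RO. Of 25 B cell genes 0 were called, 22 lay above 0 and the median was 0.30. Cr2, the complement receptor of B cells, averaged 752 ± 107 CPM in R and 479 ± 109 CPM in RO (adjusted p = 0.0865). The part of these cells in the calls was not tested. The covariate fits cannot measure it, because the list levels themselves differ between the groups. The summed neutrophil list, at 133 to 220 CPM in R and 59.1 to 104 CPM in RO, did not overlap. It also holds the called genes Chil3, S100a9 and Cxcr2. These fits called 0 genes with the neutrophil list, 1 with the red cell list and 1 with the T cell receptor list. They called 3 with red cell, B cell and monocyte-macrophage covariates together. Under the neutrophil covariate S100a9 had a log2 difference of 0.27, while Syt6 had 3.81 and Pclaf -1.67, each with an adjusted p of at least 0.778.

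Plasma cell genes showed no calls among 16 tested, beside 0.246% called over all genes. Of the 16, 7 lay above 0 and 9 below, with a median log2 difference of -0.073. On 11 libraries 12 of the 16 lay below 0 and the median was -0.30. Sdc1, the plasma cell surface proteoglycan, averaged 6.52 ± 1.56 CPM in R and 13.3 ± 3.58 CPM in RO (adjusted p = 0.0854), and Ighg1, the constant segment of IgG1, 3.23 ± 2.26 and 10.3 ± 2.22 CPM (adjusted p = 0.116). Jchain, which joins secreted IgM and IgA, was at 93.2 to 190 CPM in R and 121 to 291 CPM in RO, with overlap.

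No gene of the mTOR pathway list passed the test at the level of transcripts. Of 32 genes of the mTOR complexes and their regulators 0 were called, beside 0.246% over all genes. In the list 14 lay above 0 and 18 below, and the median was -0.0072. Mtor averaged 138 ± 9.22 CPM in R and 131 ± 11.0 CPM in RO (SD, n = 5 and 4), with a log2 difference of 0.12 and an interval from -0.057 to 0.29. Of 20 mTORC1 substrates that act on translation and of 26 ribosome biogenesis genes 0 were called, with medians of 0.064 and -0.0065. Of 21 naive T cell genes 0 were called and the median was 0.089.

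Of 28 ribosomal protein genes tested 0 were called, beside 0.246% over all genes. All 28 had log2 differences above 0, with a median of 0.29, and their summed level was 18300 to 26210 CPM in R and 16550 to 21650 CPM in RO, with overlap. Rps19, a protein of the small ribosomal subunit, was at 489, 464, 456, 512 and 582 CPM in R and 401, 360, 345 and 350 CPM in RO (log2 difference 0.51, adjusted p = 0.0592). In R replicate 3 it was at 158 CPM and in RO replicate 3 at 282 CPM. Ribosomal protein genes have many processed pseudogenes that can share reads. The percent of counts in ribosomal protein genes was 4.19 ± 0.716 in R and 3.51 ± 0.364 in RO, and the exact permutation test gave an adjusted p of 0.381. Of 26 cholesterol and fatty acid synthesis genes 22 lay below 0 with a median of -0.20 and 0 called. Srebf1, a master regulator of lipid synthesis, averaged 124 ± 6.13 and 155 ± 10.7 CPM (adjusted p = 0.163), whereas Scd1, the stearoyl-CoA desaturase, averaged 645 ± 87.3 and 468 ± 69.2 CPM (adjusted p = 0.117).

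**Figure D4:**
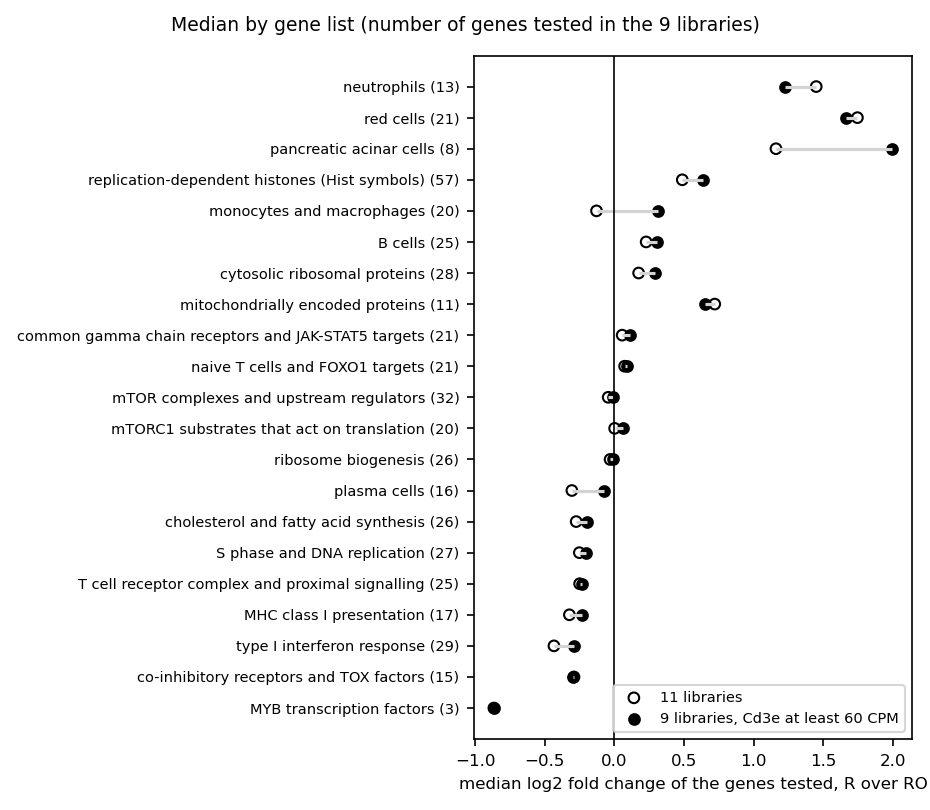
Median log2 fold change, R over RO (horizontal axis), of 21 gene lists (rows, with the number of genes tested), on 11 libraries (open circles) and on the 9 with at least 60 CPM of Cd3e (filled circles). Red cell, neutrophil and acinar lists lie at 1.16 or above in both, the mTOR and ribosome biogenesis lists lie near 0, and the monocyte and macrophage list lies on either side of 0.

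Single values per library gave no call. On the 9 libraries the percent of counts in mitochondrial genes was 2.55 ± 1.17 in R and 1.54 ± 0.250 in RO, and the percent in haemoglobin genes 0.526 ± 0.288 and 0.263 ± 0.152 (SD). The smallest p that 5 against 4 libraries allow is 0.0079, and the smallest adjusted p of the 8 values was 0.381 (exact two-sided permutation). On 11 libraries it was 0.3896. Genes with at least 1 count ran from 20530 to 23880 in R and from 22110 to 24330 in RO.

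The levels of 3 called genes, chosen after their values were seen, are set beside the other groups without a test. Pclaf averaged 21.6 ± 4.95 CPM in NT, 14.6 ± 1.87 in PS, 10.7 ± 2.44 in RO (n = 4), 4.50 ± 0.526 in R (n = 5) and 3.01 ± 0.890 in rPS. Syt6 averaged 0.999 ± 1.23 CPM in NT, 1.23 ± 0.592 in PS, 2.42 ± 1.26 in RO, 17.9 ± 5.74 in R and 35.7 ± 22.01 in rPS. Bcl2 averaged 260.0 ± 104.5 CPM in NT, 380.2 ± 35.0 in PS, 445 ± 30.9 in RO, 632 ± 73.3 in R and 834 ± 271 in rPS. In each of the 3, the RO mean lay between the PS and R means. NT mixes libraries with and without a high Cd3e level (153 ± 195 CPM), so its means also carry that difference. Every NT library also lists the mitochondrial gene mt-Rnr2 at 0, while the PS libraries held 4411 to 7896 CPM of it. The cause was not tested, and it further limits setting NT beside the other groups.

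**Figure D5:**
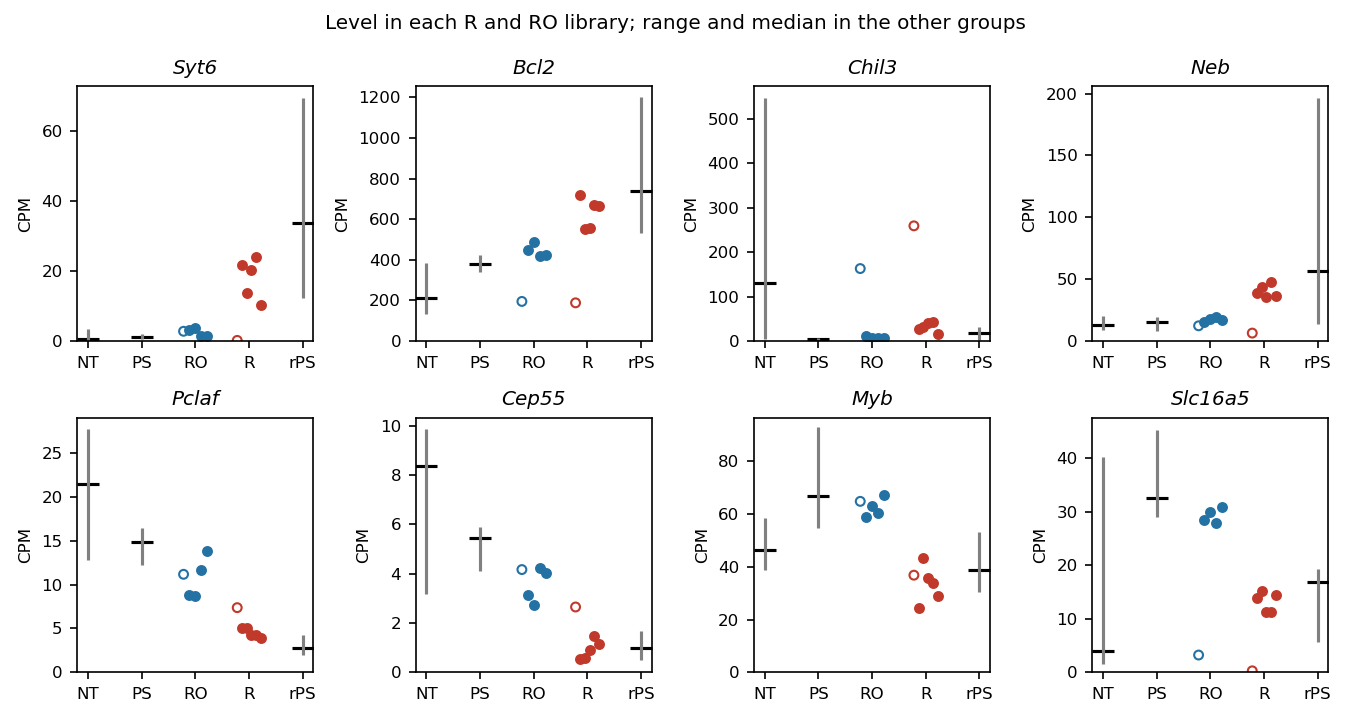
CPM (vertical axis, from 0) of 8 genes in each RO (blue) and R (red) library, with the range (grey line) and median (black bar) of NT (n = 7), PS (n = 4) and rPS (n = 5). Open circles are RO replicate 3 and R replicate 3. For Pclaf and Cep55 the filled R points overlap or adjoin the range of rPS and lie below the RO points.

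After these results were seen, the 38 genes called between R and RO were looked up in rapamycin-loaded against empty polymersomes (rPS against PS, 5 and 4 libraries), which share no library with R or RO. Of the 35 tested there, 33 had the same sign, beside 56.1% of the 15146 genes tested in both. In that comparison 6 of 15652 genes were called (0.0383%), and 2 of them were among the 35: Syt6 (log2 difference 4.94, adjusted p = 0.0253) and Pclaf (-2.19, adjusted p = 0.0253). S100a9 and Rasgef1b had the opposite sign. Cep55 (-2.23, adjusted p = 0.0624) and Bcl2 (1.21, adjusted p = 0.17) had the same sign without passing the test, while Il1b and Ackr3, called higher in R, had log2 differences of 0.027 and 0.050.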

How the data were processed

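Bulk RNA-seq of splenic T cells came as 1 file for each sample. The authors deposited expected counts (estimated counts per gene, with fractional values) for 55413 gene IDs, not scaled to a common total. Per the submitters' processing notes, Trimmomatic 0.39, STAR 2.7.5a, Cufflinks 2.1.1, Cuffdiff and the build GRCm39 were used. The counting tool, annotation and use of strand are not given in these sources, so reads of overlapping and antisense genes cannot be told apart. The series text speaks of single cells, while each file holds 1 bulk profile. Counts were rounded, and 52082 IDs (94.0%) were given symbols from GENCODE M21, used for names only. A chi-square check found no library deposited more than once. CPM is count over the library total.

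R and RO libraries, grouped by the labels, were compared with edgeR 4.0.16 (R 4.3.3; robust quasi-likelihood, TMM, filterByExpr, two-sided). A gene is called where its adjusted p (Benjamini-Hochberg, all genes tested) is under 0.05. The fit was repeated without libraries under 60 CPM of Cd3e. Adjusted p-values of single genes are from this repeat on 9 libraries, unless the 11 libraries, another comparison, test or tool is named. The 8 single values per library were compared by exact two-sided permutation, adjusted over the 8. Lists are described by counts and medians, with no test. The rule for named genes took, in each fit, called genes of at least 2 CPM with the largest changes (up to 10 each way, or the 10 smallest p where fewer were called), up to 3 genes per list, and a fixed set of lineage and pathway genes. Members, lists and rule were chosen with earlier results of these data known. Alternatives were DESeq2 1.42.0, limma 3.58.1 voom, other scalings, filters, covariates and groups in the fit, a block for replicate number, and leaving out each library. The fits were tested on simulated data. Histones and immunoglobulin and T cell receptor variable segments were added as lists after seeing the data, as were the covariates of 1 list each, the fit of all 5 groups at 60 CPM of Cd3e, and the comparison of rPS with PS. Some genes are not reported here, though counts and list summaries include them. Promoter windows are from RefSeq (GRCm38.p6), read by symbol. For Zbp1, Nlrc5, Mybl1 and Nuggc none was printed. Figures used matplotlib 3.10.9 under Python 3.11.15.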

Additional observations from a re-analysis of the deposited data

Results flagged for a closer look

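In groups of 4 to 6 libraries, 12 values lay apart from the rest of their group by Dixon's criterion, among 160 sets of libraries examined; chance alone gives about 1 in 20. R replicate 2 had 3.64 CPM of Cplx2, the highest of 5 R libraries. R replicate 4 had the most of the acinar genes Cela2a (17.6 CPM) and Pnliprp1 (7.09 CPM), and R replicate 5 the most Foxp3 (31.7 CPM). Among the 4 RO libraries, RO replicate 4 had the highest Sox4 (35.8 CPM), a transcription factor of lymphoid progenitors. RO replicate 5 had the highest H2-Q7 (432 CPM) and Cd6 (325 CPM) and the lowest Scd1 (365 CPM) and Il9r (47.6 CPM), an interleukin receptor chain. RO replicate 6 had the highest Top2a (64.4 CPM) and S100a8 (3.57 CPM), and RO replicate 1 the highest Pnliprp1 (0.847 CPM). Il9r and Pnliprp1 were chosen after their values were seen.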

How the results depend on the processing

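On the 11 libraries the number of genes called was 0, and 27 with DESeq2, 16 with limma voom, 2 with a replicate block, 5 with covariates from 3 marker lists, and 0 to 2 when leaving out each library in turn (2 without R replicate 3). It was 0 under the other scalings, filters and groups tried. On the 9 libraries the 38 calls became 236 without a low-count filter, 18 with a mean of at least 2 CPM, 309 with DESeq2, 76 with limma voom, 0 with all 5 groups in the fit (with or without the Cd3e minimum), 0 on the 11 libraries, 2 with a replicate block, 3 with covariates from 3 marker lists, 0, 1 and 1 with the neutrophil, red cell or T cell receptor covariate, and 4 to 68 when leaving out each library. The covariate and block fits leave fewer residual degrees of freedom. Same-numbered libraries correlated at 0.22, -0.24 and -0.11 in their deviations on the 9 libraries (numbers 4, 5 and 6) and at 0.77, 0.33, 0.076 and 0.26 on the 11 (numbers 3 to 6), where number 3 joins both libraries with little Cd3e. In neither set was every pair above 0.1, so the numbers were not treated as pairing the mice, and not every library correlated best with its own number. The share of genes with intervals within 2-fold was 85.9% on 11 and 85.0% on 9 libraries with limma voom. Signs changed for few genes. The log2 difference of Foxp3 was 0.0045 with DESeq2, 0.22 with limma voom, 0.015 and 0.012 with all 5 groups (without and with the Cd3e minimum), 0.53 with 3 covariates, 0.58, 0.45 and 0.63 with the neutrophil, red cell and T cell receptor covariate, and -0.20 to 0.31 when leaving out each library. That of Mki67 was -0.37 with 3 covariates and -0.42 with either the neutrophil or the red cell covariate. With the neutrophil covariate it was -0.056 for Klf1 and -0.62 for S100a8, and with the T cell receptor covariate 0.069 for Cd3e. That of Lyz2 was -0.084 on the 11 libraries. The difference in log2 total count was 0.036 on the 9 libraries and -0.38 to 0.013 when leaving out each library. The cause of these changes was not tested. Depth limits the low genes: a count of 0 allowed between 0.212 and 0.635 CPM in the libraries compared.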

Other observations

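Replication-dependent histone genes, a list added after seeing the data, were looked at on the 9 libraries: 0 of 57 tested were called by edgeR. An unadjusted p under 0.05 was found for 30 of them, all higher in R, beside 6.63% higher over all genes. All 57 had log2 differences above 0, beside 51.9% over all genes, with a median of 0.63 beside 0.01 over all genes. Their summed level was 1199 to 3038 CPM in R and 1626 to 1836 CPM in RO, so the R range reached both below and above the RO range. Hist1h3b, a histone H3 gene chosen after its values were seen, was at 27.1, 22, 13, 28.1 and 14.9 CPM in R replicates 4, 5, 6, 7 and 2 and 11.7, 7.05, 10.8 and 12.7 CPM in RO replicates 4, 5, 6 and 1 (adjusted p = 0.111). R replicate 3 and RO replicate 3 were at 3.83 and 12.4 CPM. Histone genes are near-identical, so reads can be split among them. The red cell list had a median log2 difference of 1.66 with 0 called in the same libraries, and its part in the histone levels was not tested. In these libraries 12 of 13 neutrophil, 14 of 21 red cell and 12 of 25 B cell genes were also higher in R at an unadjusted p under 0.05. Clock genes held values on both sides: Nr1d2, a repressor of the circadian clock, averaged 63.4 ± 8.37 CPM in R and 47.1 ± 5.16 CPM in RO, and Bhlhe41, another clock repressor, 12.2 ± 2.57 and 20.8 ± 3.56 CPM (SD, adjusted p = 0.0989 and 0.117). Among 144 immunoglobulin variable segments tested on 11 libraries 0 were called and 91 lay below 0, while on the 9 libraries 59 of 145 did.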
